A study of Mus musculus with 12 samples.

Results

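The BCL2 family sets whether a cell survives or dies by the mitochondrial route of apoptosis. This account covers 10 of its genes, chosen by symbol from the 41128 genes of the PreMegE count table. They are the survival genes Bcl2, Bcl2l1 and Mcl1, the pore-forming effectors Bax and Bak1, and the BH3-only genes Bid, Bad, Bcl2l11, Bbc3 and Pmaip1. PreMegEs are bone marrow progenitors that can give rise to both megakaryocytes and erythroid cells. They were sorted here from the adult marrow of C57BL/6 mice aged 12 to 16 weeks, and poly(A) RNA-seq was run on 3 libraries in each of 4 groups, with the RNA of each library drawn from 3 pooled mice. The paper's methods give the age and the pooling without naming the KO libraries.

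WT PreMegEs came from wild type mice. P2- and P2+ PreMegEs came from mice with 1 Runx1 P1-GFP::P2-hCD4 allele, in which GFP reports the distal promoter P1 of Runx1 and human CD4 reports the proximal promoter P2, and they were sorted as hCD4- and hCD4+ cells. They therefore differ from WT cells in genotype as well as in the sort. The paper speaks of Runx1 haploinsufficiency for cells of this reporter line. KO PreMegEs came from the RUNX1C knockout, in which the isoform made from P1 is lost and transcription from P2 remains. In the paper the mice without RUNX1C are homozygous for a P1-GFP allele. Runx1 is a transcription factor of blood cell formation. Its summed gene level was 211 ± 7.34 CPM, counts scaled to a common library size, in P2-, 370 ± 15.6 in WT, 632 ± 24.2 in P2+ and 360 ± 20.4 in KO PreMegEs (mean ± SD, n = 3). This gene-level value covers both promoters, so it does not check the loss of RUNX1C.

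Proteins of the BCL2 family act at the outer membrane of the mitochondrion. BAX and BAK open pores in it, which lets out cytochrome c and starts the caspases that take the cell apart. BCL2, BCL-XL (the long product of Bcl2l1) and MCL1 hold these effectors in check, and the BH3-only proteins, which respond to damage or to loss of growth factors, bind the survival proteins or switch on the effectors. BCL-XL is best known in these lineages for keeping platelets and late erythroblasts alive, and MCL1 is needed by blood stem cells and progenitors. Gene-level counts add up all isoforms, so long and short products of Bcl2l1 or Mcl1 cannot be told apart here, and RNA does not show the protein.

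The sequences just upstream of the start sites are shown for the members that changed most often between groups, Bcl2, Bcl2l1 and Bid, and for Mcl1, the survival gene with the highest per-length level. They were read from RefSeq on build GRCm38.p6, 5′ to 3′ on the strand of the gene, and for Bcl2l1 the most distal of 3 start sites is shown. For Bid the 29 exonic bases next to the start are left out, so that 221 bases are printed. Capitals mark matches to 3 short motifs searched on both strands, which do not overlap each other here: TGTGGT for RUNX factors, AGATAA for GATA factors and CCGGAA for Ets factors.
Bcl2, chr1:106714291-106714540, minus strand: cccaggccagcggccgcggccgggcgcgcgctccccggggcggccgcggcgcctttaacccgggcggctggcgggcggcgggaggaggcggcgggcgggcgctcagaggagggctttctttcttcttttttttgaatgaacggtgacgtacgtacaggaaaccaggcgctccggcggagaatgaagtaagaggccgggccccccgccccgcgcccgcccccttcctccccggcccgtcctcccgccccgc
Bcl2l1, chr2:152831729-152831978, minus strand: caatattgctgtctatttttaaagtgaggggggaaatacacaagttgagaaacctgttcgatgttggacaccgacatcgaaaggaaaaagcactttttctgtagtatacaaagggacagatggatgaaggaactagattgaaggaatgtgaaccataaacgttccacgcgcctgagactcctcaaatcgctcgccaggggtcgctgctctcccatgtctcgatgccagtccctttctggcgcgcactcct
Mcl1, chr3:95658471-95658720, plus strand: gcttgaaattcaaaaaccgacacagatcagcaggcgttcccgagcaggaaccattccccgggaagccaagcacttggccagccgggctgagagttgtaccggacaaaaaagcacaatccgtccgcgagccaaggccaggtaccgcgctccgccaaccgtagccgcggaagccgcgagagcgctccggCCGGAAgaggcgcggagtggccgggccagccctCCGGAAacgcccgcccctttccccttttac
Bid, chr6:120916854-120917074, minus strand: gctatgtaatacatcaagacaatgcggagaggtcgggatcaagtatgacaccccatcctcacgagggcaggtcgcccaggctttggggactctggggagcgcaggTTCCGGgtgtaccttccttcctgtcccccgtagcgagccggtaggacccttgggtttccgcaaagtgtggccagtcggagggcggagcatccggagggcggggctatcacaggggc

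The windows of Bcl2 and of the distal Bcl2l1 start held none of the 3 motifs, that of Mcl1 held 2 Ets matches and that of Bid held 1. GC made up 74.8% of the Bcl2 window and 47.6% of the Bcl2l1 window. Over the 15 windows of 250 bases that RefSeq start sites gave for 9 of the members, a RUNX match stood in 1, upstream of Bak1, and a GATA match in 1, at an inner start of Bcl2l1. An Ets match stood in 4 windows, those of Mcl1, Bid, the second Bad start and the first Bcl2l11 start. Among all 32851 windows of this length, 14.05% held the RUNX, 9.99% the GATA and 12.03% the Ets letters. These matches describe letters only, and no binding was measured.

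The libraries held 10726098 to 14445026 counts, so that 3 counts, taken as the floor, stood for 0.208 to 0.280 CPM. Replicate 2 of P2- and replicate 2 of P2+ stood apart from the other libraries in 12 immediate early genes, which respond within minutes to signals or to handling. Their summed level was 13670 CPM in P2- replicate 2 and 9189 CPM in P2+ replicate 2, against 187 to 1292 CPM in the other 10 libraries. Where these libraries carry a value, it is also given per library or without them. Genes that mark the 2 fates also differed widely between groups. The summed erythroid markers ran from 1946 to 2413 CPM in P2-, 1189 to 1329 in WT, 197 to 274 in P2+ and 1917 to 2155 in KO libraries. The summed megakaryocyte markers ran from 150.4 to 209 CPM in P2-, 606 to 695 in WT, 919.6 to 1390.0 in P2+ and 372 to 403 in KO libraries. Neutrophil and monocyte markers summed to 304 to 445 CPM in P2+, 176 to 307 in WT, 80.4 to 131 in KO and 62.8 to 119 in P2- libraries, with none of the 10 genes at 0 in any group. In KO against WT 6 of the 8 tested fell, where 8.76% of all genes did. Mast and basophil markers ran from 100.5 to 157 CPM in P2+, 31.8 to 37.6 in P2-, 30.9 to 55.2 in WT and 54.3 to 75.0 in KO libraries, with the mast cell protease Cma1 at 0 in all groups and 5 of the 8 genes at 0 in P2-. Lymphoid markers ran from 3.11 to 11.3 CPM in P2-, 14.3 to 25.3 in WT, 9.01 to 69.6 in P2+ and 9.47 to 13.4 in KO libraries, and Cd3g, of the T cell receptor complex, was at 0 in all libraries. In sorted pools, a change in the mix of cells and a change in RNA per cell cannot be told apart, and the part of these markers in the results was not tested.

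Levels of different genes were compared per length, as RPKM, which is CPM divided by the exonic length in kilobases. Mcl1 made up most of the survival RNA in all groups, with 88.1% ± 4.58 of the summed RPKM of the 3 survival genes in P2-, 75.9% ± 0.985 in WT, 73.0% ± 8.50 in P2+ and 81.8% ± 0.785 in KO PreMegEs (SD, n = 3). Bcl2 held 9.20% ± 3.72 in P2- PreMegEs, 19.1% ± 1.47 in WT, 20.3% ± 6.64 in P2+ and 13.6% ± 0.507 in KO. Bcl2l1 had the lowest share, from 2.65% ± 0.872 in P2- to 6.73% ± 1.94 in P2+ PreMegEs. Replicate 2 of each fraction moved these means. The Mcl1 share was 93.4% in P2- replicate 2 against 85.0% and 86.0% in the other P2- libraries, and 82.4% in P2+ replicate 2 against 70.8% and 65.8%. The Bcl2 share was 4.95% in P2- replicate 2 against 11.9% and 10.8%, and 12.8% in P2+ replicate 2 against 22.6% and 25.5%. Among the effectors Bak1 held 79.2% to 86.5% of the summed RPKM in each group. Bid had the largest share of the BH3-only genes in the 10 libraries with low immediate early genes, at 35.4% to 46.9%. In replicate 2 of the fractions Bbc3 was above it, with 43.4% against 32.7% in P2- and 44.1% against 23.4% in P2+. The summed survival RPKM reached 250.5 in P2- replicate 2 and 287 in P2+ replicate 2, the libraries with high immediate early genes.

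**Figure D1:**
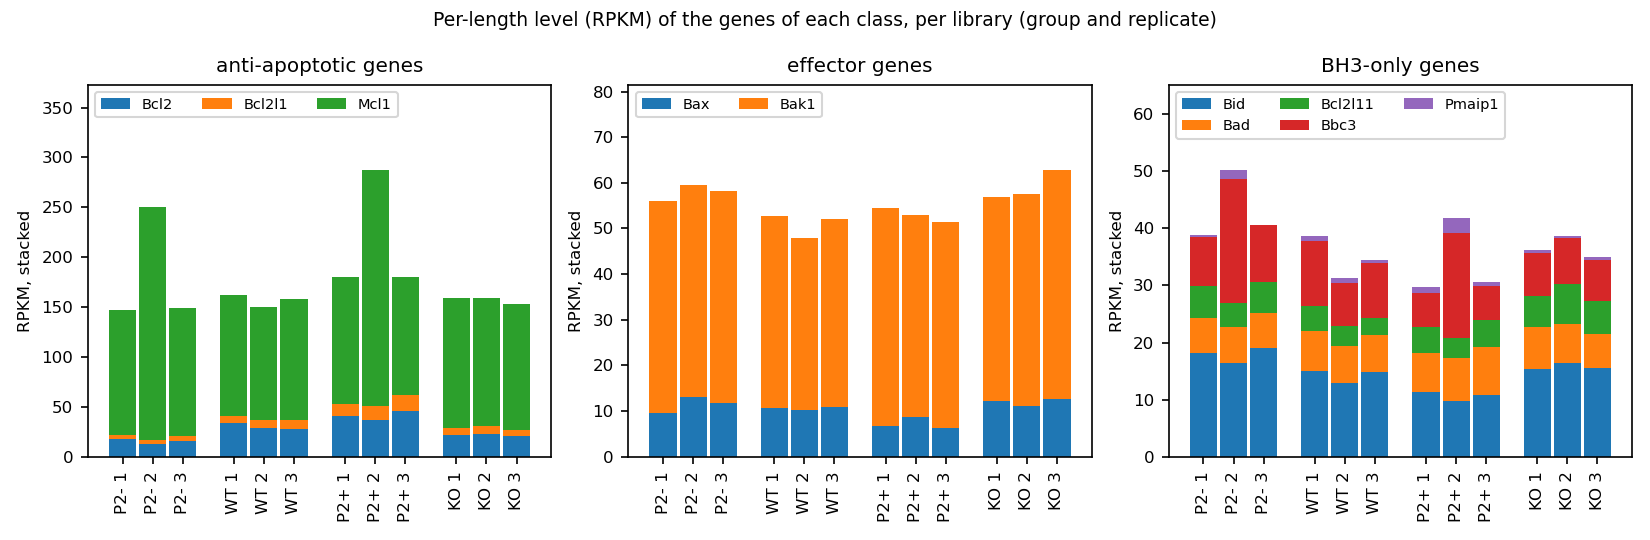
Stacked per-length levels (RPKM, y axis from 0) of the survival, effector and BH3-only genes in each of the 12 libraries (x axis, group and replicate). Mcl1 and Bak1 fill most of their classes, and the tall survival bars are replicate 2 of P2- at 250.5 and replicate 2 of P2+ at 287 RPKM.

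Bcl2 and Bcl2l1 were lowest in P2- and highest in P2+ PreMegEs, and Bid was highest in P2- and lowest in P2+. In P2+ against P2- PreMegEs, Bcl2 and Bcl2l1 rose and Bax and Bid fell (4 of the 10 members at an adjusted p under 0.05, edgeR quasi-likelihood test with Benjamini-Hochberg adjustment across the whole table). This share is near the background, as 37.1% of the 12836 genes tested passed the same threshold in this comparison, 20.1% higher and 17.0% lower. The same 4 members changed in the same directions in P2+ against WT PreMegEs, where 16.5% of all genes passed, 9.45% higher and 7.07% lower. In P2- against WT PreMegEs, 3 members changed, with Bid higher and Bcl2 and Bcl2l1 lower, again beside 16.5% of all genes, 6.85% higher and 9.60% lower. In KO against WT PreMegEs, 2 members changed, Bcl2l11 higher and Bcl2 lower, beside 14.9% of all genes, 6.18% higher and 8.76% lower. All 10 members passed the filter on low counts in each comparison. The comparisons share libraries and are not independent of each other. With a minimum of 2-fold as well, 2 members, Bcl2 and Bcl2l1, passed in P2+ against P2- beside 12.7% of all genes. None of the 10 passed it in P2+ against WT (3.84% of all genes), P2- against WT (4.68%) or KO against WT (3.41%).

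**Figure D2:**
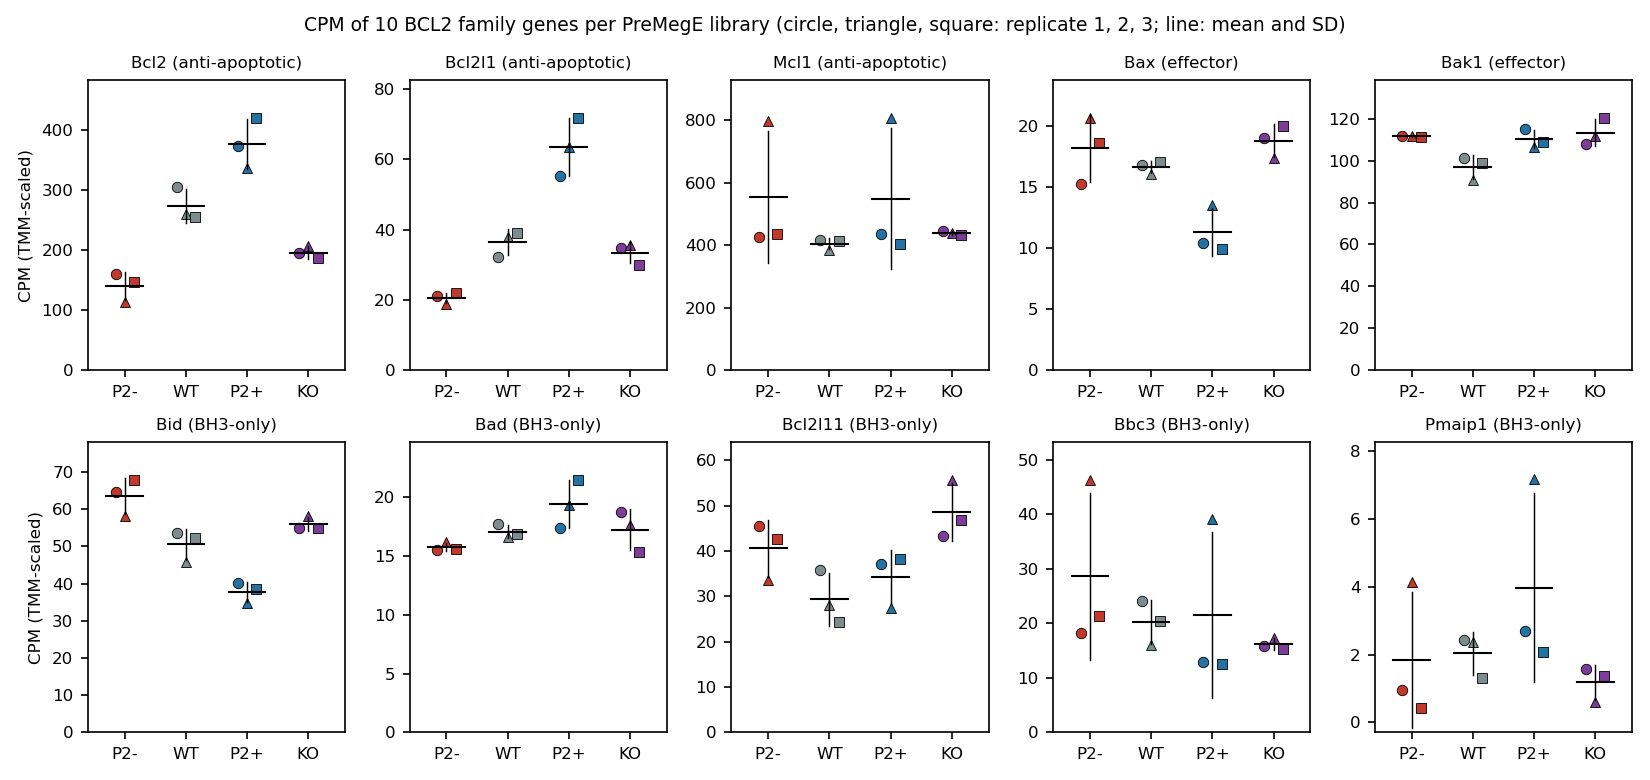
CPM (y axis) of each of the 10 genes in the P2-, WT, P2+ and KO libraries (x axis); symbols are replicates 1, 2 and 3, and lines give the mean and SD of 3 libraries. Bcl2 and Bcl2l1 climb from P2- to WT to P2+ without overlap, Bid descends, and replicate 2 of P2- and of P2+ is high for Mcl1, Bbc3 and Pmaip1.

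Bcl2 (chr1:106538178-106714274, minus strand, GRCm38) encodes the founding survival protein of the family. It stood at 159.9, 114 and 147 CPM in the P2- libraries, 195, 207 and 186 in KO, 305, 261 and 255 in WT, and 372, 337 and 420.1 in P2+. No 2 groups overlapped. Bcl2 was higher in P2+ than in P2- PreMegEs by 1.44 ± 0.13 on the log2 scale (SE, adjusted p = 6.69e-05) and higher in P2+ than in WT by 0.47 ± 0.10 (adjusted p = 0.0101). It was lower than WT in P2- PreMegEs, with a log2 change of -0.96 ± 0.12 (adjusted p = 0.000604), and in KO PreMegEs, with -0.49 ± 0.07 (adjusted p = 0.000143). On a scale from the P2- mean (0%) to the P2+ mean (100%), WT libraries lay at 56.4% ± 11.7 and KO libraries at 23.5% ± 4.35 (SD, n = 3). These 4 calls on Bcl2 held in every alternative fit and without each library in turn. That of P2+ against WT held narrowly without WT replicate 2 (adjusted p = 0.04996). In the main fits the difference between P2+ and P2- was the one above 2-fold. The P2- against WT change ran from -1.06 to -0.84 over the alternatives and passed 2-fold in some.

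Bcl2l1 (chr2:152780668-152831728, minus strand) had the largest change of the members between the fractions. Its levels were 21.0, 18.9 and 21.8 CPM in P2-, 34.7, 35.6 and 29.96 in KO, 32.1, 37.8 and 39.1 in WT, and 55.2, 63.6 and 71.8 in P2+ libraries. P2- libraries lay below and P2+ libraries above all others, while KO and WT overlapped. Bcl2l1 was higher in P2+ than in P2- PreMegEs by 1.64 ± 0.13 on the log2 scale (adjusted p = 2.29e-05) and higher than in WT by 0.81 ± 0.12 (adjusted p = 0.00127). P2- PreMegEs were lower than WT, with a log2 change of -0.81 ± 0.12 (adjusted p = 0.00169). KO against WT gave -0.13 ± 0.11 (adjusted p = 0.523), so a change of Bcl2l1 was not called in the knockout.

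Mcl1 (chr3:95658788-95663176, plus strand) encodes a short-lived survival protein. Its levels were 428, 799.6 and 437 CPM in P2-, 416, 386 and 415 in WT, 436, 808 and 404 in P2+, and 445, 440.0 and 432 in KO libraries. Both values near 800 were replicate 2, the libraries with high immediate early genes, and the other 10 libraries lay between 386 and 445 CPM. The log2 change between P2+ and P2- was -0.00 ± 0.31 (adjusted p = 0.995), and without replicate 2 of both fractions it was -0.02 (adjusted p = 0.908). No comparison called a change of Mcl1, although all 3 KO libraries and all 3 P2- libraries lay above all 3 WT libraries. The log2 change was 0.11 ± 0.06 for KO against WT (adjusted p = 0.254). For P2- against WT it was 0.45 ± 0.20 (adjusted p = 0.158), and 0.09 without P2- replicate 2. For P2+ against WT it was 0.45 ± 0.21 (adjusted p = 0.189), and 0.05 without P2+ replicate 2 (adjusted p = 0.693).

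Bax (chr7:45461697-45466898, minus strand) encodes the effector that moves from the cytosol to the mitochondrion. It stood at 15.2, 20.7 and 18.6 CPM in P2-, 16.8, 16.1 and 17.1 in WT, 10.4, 13.5 and 9.92 in P2+, and 19.1, 17.4 and 20.04 in KO libraries. The 3 P2+ libraries were the lowest of the 12. Bax fell by 0.67 ± 0.19 on the log2 scale in P2+ against P2- PreMegEs (adjusted p = 0.0210) and by 0.55 ± 0.17 against WT (adjusted p = 0.0466). The first call was lost without P2- replicate 2 or 3 or without P2+ replicate 1 or 3 (adjusted p 0.0592 to 0.0753). The second was lost without any library other than P2+ replicate 2, with adjusted p of 0.113 to 0.129. Bax in P2- against WT (0.13 ± 0.15) and in KO against WT (0.17 ± 0.13) was not called changed.

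Bak1 (chr17:27019810-27029009, minus strand) encodes the effector that resides in the mitochondrial membrane. It stood at 111.5, 111.6 and 111.4 CPM in P2-, 101, 90.7 and 99.0 in WT, 115.0, 107 and 109 in P2+, and 108, 112 and 120.4 in KO libraries. The 9 libraries of the other groups were all above the 3 WT libraries. The log2 change was -0.00 ± 0.07 in P2+ against P2- PreMegEs (adjusted p = 0.964). Against WT it was 0.19 ± 0.08 in P2+, 0.20 ± 0.07 in P2- and 0.21 ± 0.07 in KO PreMegEs, and none of these was called (adjusted p = 0.124, 0.0926 and 0.0578). Without the filter on low counts the KO value, 0.22, was called (adjusted p = 0.0482). Bak1 shares 437 exonic bases with Ggnbp1 on the opposite strand, which had 460 counts over the 12 libraries.

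Bid (chr6:120891930-120916853, minus strand) encodes the BH3-only protein that is cut by caspase 8 and links death receptors to the mitochondrion. Its levels were 64.6, 58.2 and 67.8 CPM in P2-, 53.6, 45.7 and 52.4 in WT, 40.1, 34.8 and 38.5 in P2+, and 54.8, 58.2 and 54.9 in KO libraries. The P2+ libraries were the lowest, WT lay between them and the P2- libraries, and KO overlapped P2- but not WT. Bid fell by 0.74 ± 0.10 on the log2 scale in P2+ against P2- PreMegEs (adjusted p = 0.000681) and by 0.42 ± 0.10 against WT (adjusted p = 0.0187), and it was 0.33 ± 0.09 higher in P2- than in WT (adjusted p = 0.0375). The P2+ against WT call was lost without WT replicate 1 (adjusted p = 0.0906) or WT replicate 3 (adjusted p = 0.0684). The P2- against WT call was lost without any one library other than P2- replicate 2, with adjusted p of 0.0689 to 0.143. Bid shares 628 exonic bases with Bcl2l13 on the opposite strand, which had 40564 counts over the 12 libraries, while Bid had 478 to 960 counts per library. The strand setting of the counting was not stated, so the counts of Bid may hold reads of Bcl2l13.

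Bcl2l11 (chr2:128126038-128162547, plus strand) encodes BIM, a BH3-only protein that responds to loss of growth factors. It stood at 45.5, 33.6 and 42.7 CPM in P2-, 35.8, 28.1 and 24.4 in WT, 37.1, 27.4 and 38.2 in P2+, and 43.4, 55.6 and 46.8 in KO libraries. The KO libraries lay above all WT and P2+ libraries. Bcl2l11 was 0.72 ± 0.13 higher in KO than in WT PreMegEs on the log2 scale (adjusted p = 0.00113), and the call held without each library in turn. In P2- against WT the change was 0.47 ± 0.16 (adjusted p = 0.0688) and was called without P2- replicate 2 (0.58, adjusted p = 0.0173) or WT replicate 1 (0.63, adjusted p = 0.0412). The log2 change in P2+ against P2- was -0.24 ± 0.16 (adjusted p = 0.289). With the replicate number as a block it was -0.24 with adjusted p = 0.0492. It was -0.09 without P2+ replicate 2 (adjusted p = 0.668) and -0.36 without P2- replicate 2 (adjusted p = 0.114).

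Bbc3 (chr7:16308393-16318205, plus strand) encodes PUMA, a target of p53. It stood at 18.2, 46.3 and 21.3 CPM in P2-, 24.1, 16.1 and 20.4 in WT, 12.8, 39.1 and 12.5 in P2+, and 15.8, 17.4 and 15.3 in KO libraries. Replicate 2 held the highest value in each fraction, 46.3 and 39.1 CPM, and no other library was above 24.1 CPM. The log2 change in P2+ against P2- was -0.39 ± 0.49 (adjusted p = 0.573). With the replicate number as a block, which takes out what same-numbered libraries shared, it was -0.47 (adjusted p = 0.00728). Without replicate 2 of both fractions it was -0.61 (adjusted p = 0.0205). In P2+ against WT it was 0.10 ± 0.38 with all libraries (adjusted p = 0.887) and -0.67 without P2+ replicate 2 (adjusted p = 0.0254), and in P2- against WT it was 0.49 ± 0.31 and, without P2- replicate 2, -0.04.

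Pmaip1 encodes NOXA, a BH3-only partner of MCL1, and was the lowest member. It had 12, 43 and 6 counts in P2- libraries (0.956, 4.13 and 0.424 CPM), 35, 28 and 18 in WT, 32, 104 and 27 in P2+ (2.68, 7.19 and 2.06 CPM), and 18, 7 and 15 in KO. Replicate 2 was again the highest in both fractions, and within each replicate number P2+ was above P2-. The log2 change in P2+ against P2- was 1.18 ± 0.77 (adjusted p = 0.268). With the replicate number as a block it was 1.36 (adjusted p = 0.0110), without P2- replicate 2 alone 2.55 (adjusted p = 0.0179), without P2- replicate 3 0.68 (adjusted p = 0.529) and without P2+ replicate 2 0.44 (adjusted p = 0.707). Pmaip1 met the filter of 1 CPM in 3 libraries only through the P2+ libraries, where it was high, and this holds for each of these fits that called it. The value of 2.55 rests on P2- counts of 12 and 6. Without replicate 2 of both fractions Pmaip1 did not pass the filter on low counts and was not tested.

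Bad (chr19:6941861-6951899, plus strand) encodes a BH3-only protein held inactive by growth factor signals. It stood at 15.5, 16.2 and 15.6 CPM in P2-, 17.7, 16.6 and 16.8 in WT, 17.4, 19.4 and 21.5 in P2+, and 18.7, 17.6 and 15.3 in KO libraries. The P2- libraries lay below the WT and P2+ libraries without overlap, but no comparison called a change. The log2 change was 0.31 ± 0.14 in P2+ against P2- (adjusted p = 0.112) and 0.00 ± 0.14 in KO against WT (adjusted p = 0.989). Bad shares 524 exonic bases with Gpr137 on the opposite strand, which had 2334 counts over the 12 libraries, so the same doubt on strand holds as for Bid.

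**Figure D3:**
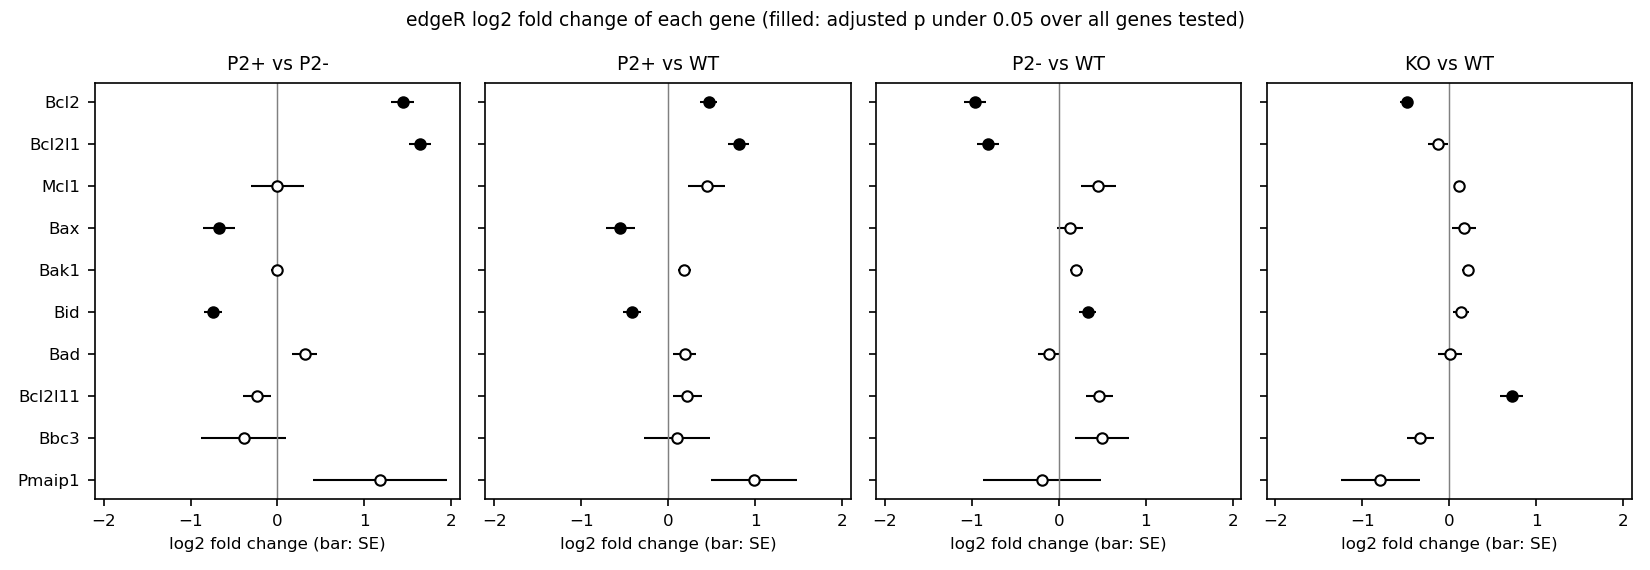
edgeR log2 fold change (x axis, bars show the SE) of each of the 10 genes (y axis) in the 4 comparisons; filled points passed the adjusted p threshold of 0.05. Bcl2 lies at 1.44, 0.47, -0.96 and -0.49 from left to right, and Bcl2l11 is filled in KO against WT at 0.72.

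Same-numbered P2+ and P2- libraries were taken as pairs from their correlation in these same counts, as the labels give only the numbers. With that block the number of members changed in P2+ against P2- went from 4 to 7. The added ones were Bcl2l11, Bbc3 and Pmaip1, of which Pmaip1 met the filter on low counts only through P2+. The background went up as well, to 50.7% of the 12836 genes. Without replicate 2 of both fractions 5 members changed, Bbc3 being the added one, beside 37.1% of 12271 genes. Members were also counted by whether the libraries of the groups overlapped. Between P2- and P2+, 5 of the 10 members did not overlap (Bcl2, Bcl2l1, Bax, Bid and Bad), where 49.9% of all genes tested did not. The number was 5 between P2+ and WT beside 35.5% of all genes, 6 between P2- and WT beside 35.1%, and 6 between KO and WT beside 31.7%.

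Mcl1, Bbc3 and Pmaip1 were at their highest in the 2 libraries with high immediate early genes. Fos, which encodes a subunit of the AP-1 factor, reached 1328 CPM in P2- replicate 2 and 904 CPM in P2+ replicate 2, against 166 CPM at most elsewhere. WT replicate 3, next in immediate early genes at 1292 CPM, had 415 CPM of Mcl1, 20.4 of Bbc3 and 1.31 of Pmaip1, all within the range of the libraries with low sums. Bcl2 was at its lowest in these libraries within each fraction, with 114 CPM in P2- replicate 2 and 337 CPM in P2+ replicate 2. Bid and Bcl2l11 were also lowest, and Bax highest, in replicate 2 of each fraction. What set these libraries apart was not tested.

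**Figure D4:**
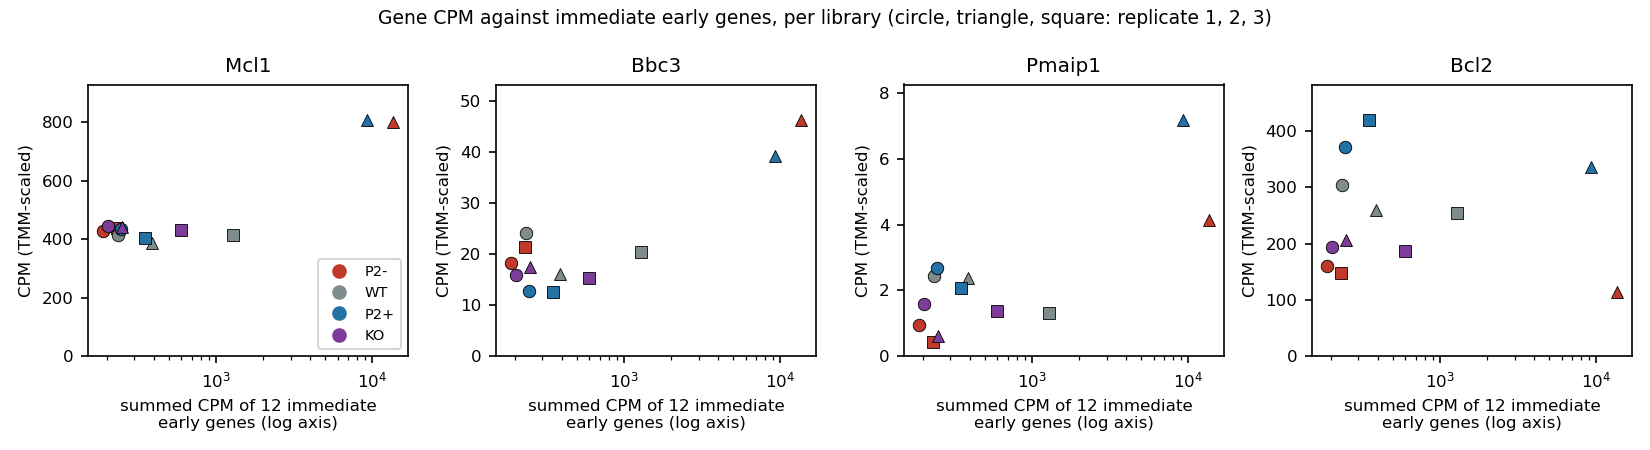
CPM (y axis) of Mcl1, Bbc3, Pmaip1 and Bcl2 against the summed CPM of 12 immediate early genes (x axis, log scale) in the 12 libraries, coloured by group with symbols for replicates. The triangles at 13670 and 9189 CPM on the x axis, replicate 2 of P2- and P2+, are the highest points for Mcl1, Bbc3 and Pmaip1, while for Bcl2 each is the lowest of its group.

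The rest of the family was next set beside the members. Of 17 further BCL2 family genes, 8 passed the filter in P2+ against P2-, and 1 of them changed, where 37.1% of all genes did. The number was 1 of 9 in P2+ against WT (16.5% of all genes), 2 of 8 in P2- against WT (16.5%) and 2 of 8 in KO against WT (14.9%). The 1 in P2+ against P2- was Bcl2l13, a mitochondrial protein with BCL2 homology, at -0.77 ± 0.09 on the log2 scale (adjusted p = 0.000202). Bcl2l13 also fell in P2+ against WT, by 0.38 ± 0.08, and rose in P2- and KO against WT, by 0.41 ± 0.09 and 0.32 ± 0.07. Its directions in P2+ and P2- PreMegEs were those of Bid, with which it shares exonic bases. Becn1, which binds BCL2 and acts in autophagy, rose in P2- against WT by 0.27 ± 0.08 (adjusted p = 0.0402) and in KO against WT by 0.21 ± 0.07 (adjusted p = 0.0492).

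A list of 18 genes that start or carry out apoptosis, such as caspases, released mitochondrial proteins and membrane channels, was tested whole. In P2+ against P2- PreMegEs 3 rose and 6 fell, beside 20.1% of all genes higher and 17.0% lower, with a median log2 change of -0.25 against -0.02 over all genes. Htra2 fell by 1.03 ± 0.08 and Diablo by 0.75 ± 0.12 on the log2 scale, both of which encode mitochondrial proteins that counter caspase inhibitors once released. In P2+ against WT 0 rose and 4 fell (9.45% and 7.07% of all genes), Htra2 among them by 0.56 ± 0.07 (adjusted p = 0.000721). In P2- against WT 4 rose and 0 fell (6.85% and 9.60% of all genes), with Htra2 0.48 ± 0.08 and Vdac2, a mitochondrial channel, 0.30 ± 0.07 higher. In KO against WT 3 rose and 0 fell (6.18% and 8.76% of all genes), with Htra2 0.41 ± 0.07 (adjusted p = 0.000642) and Diablo 0.35 ± 0.08 higher. Htra2 thus lay above WT in the 2 groups in which Bcl2 lay below WT, and below WT in P2+ PreMegEs, where Bcl2 lay above. Erythroid markers had the same order, and their part was not tested.

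Among caspase inhibitors and death receptor genes, 12 of 14 were tested in P2+ against P2-, of which 4 rose and 1 fell, near the 37.1% of all genes that were called. The death ligand gene Tnfsf10 (TRAIL) rose by 0.69 ± 0.09, the TNF receptor gene Tnfrsf1a by 0.72 ± 0.16, and Birc5, which encodes survivin and marks dividing cells, by 1.02 ± 0.16. In P2+ against WT, where 9.45% of all genes rose and 7.07% fell, 2 of 13 rose and 0 fell, namely Birc5 (0.49 ± 0.13) and Tnfrsf1a (0.42 ± 0.11). In P2- against WT, where 6.85% of all genes rose and 9.60% fell, 0 of 12 rose and 2 fell, Birc5 at -0.52 ± 0.10 and Tnfsf10 at -0.42 ± 0.10. In KO against WT, where 6.18% of all genes rose and 8.76% fell, 0 of 13 rose and 1 fell, Tnfsf10 at -0.39 ± 0.08 (adjusted p = 0.00321).

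Of 22 genes known to control BCL2 family genes or proteins, 21 were tested in each comparison. In P2+ against P2- PreMegEs 4 rose and 6 fell, where 20.1% of all genes were called higher and 17.0% lower. Trp53, which encodes the p53 factor that acts on Bax, Bbc3 and Pmaip1, fell by 0.73 ± 0.07 on the log2 scale (adjusted p = 8.51e-05). Bag1, a BCL2-binding co-chaperone, fell by 0.70 ± 0.09, and Stat5a, which relays cytokine signals and acts on Bcl2l1, by 0.46 ± 0.07. In P2+ against WT 1 rose and 5 fell (9.45% and 7.07% of all genes), among them Trp53 (-0.48 ± 0.07), Stat5a (-0.35 ± 0.07) and Foxo3 (-0.30 ± 0.07), a factor known to act on Bcl2l11. In P2- against WT 2 rose and 0 fell (6.85% and 9.60% of all genes), Bag1 at 0.36 ± 0.07 and Trp53 at 0.26 ± 0.07. In KO against WT 6 rose and 1 fell (6.18% and 8.76% of all genes). Ddit3, a stress factor known to act on Bcl2l11, was 0.57 ± 0.12 higher (adjusted p = 0.00246), Mdm4, an inhibitor of p53, 0.32 ± 0.08 higher and Bag1 0.32 ± 0.08 higher.

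As a description, genes were ranked by the Pearson correlation of their log2 CPM with that of a member over all 12 libraries, among 13272 genes. The groups themselves differ, and the points share their library, so these values carry no test. Nearest to Bcl2 were Cxxc5 (r = 0.991), Pla2g15 (r = 0.991) and Gas2l3 (r = 0.989). Nearest to Bcl2l1 were Exoc3l2 (r = 0.989), Ncoa3 (r = 0.987) and Slc14a1 (r = 0.987). Nearest to Bid were Nol9 (r = 0.975), Rpl14 (r = 0.974) and Cul4a (r = 0.965). For Mcl1 they were Tsc22d2 (r = 0.971), Sertad2 (r = 0.968) and Gm12183 (r = 0.962), where replicate 2 of both fractions spans most of the range.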

How the data were processed

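Gene expression was measured by poly(A) RNA-seq in 12 PreMegE samples, 3 in each of the WT, P2-, P2+ and KO groups, made with 50 ng of RNA and 16 PCR cycles in a strand-specific kit. The values deposited by the authors are raw counts of reads per gene. According to the study's methods and processing notes, reads were aligned with Bowtie2 to GRCm38 and counted with featureCounts on Ensembl genes. The strand setting, the handling of reads with several positions, and whether the KO libraries were prepared with the others are not given in the sources used here. The paper's methods do not name the KO libraries, so their pool size, RNA amount and PCR cycles are taken as those of the others.

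From these counts, CPM on TMM-scaled library sizes and RPKM on exonic lengths (GENCODE vM21) were computed. Genes that reached 1 CPM in 3 or more libraries were tested with edgeR 4.0.16 (quasi-likelihood test, R 4.3.3) on the 6 libraries of each of 4 comparisons. P-values were adjusted by Benjamini-Hochberg over all genes tested, and a gene was called changed at an adjusted p under 0.05. The study's own threshold adds a 2-fold minimum. Each library pools 3 mice. Whether pools were of separate mice between the P2- and P2+ fractions is not given, so p-values measure the spread between these libraries. Counts of replicates differed by more than sampling noise in every group. Replicate numbers of P2+ and P2- libraries were taken as pairs, because the deviations of same-numbered libraries from their group means correlated at 0.385, 0.572 and 0.406 over genes. In the other comparisons at least 1 same-numbered pair was under 0.1. Fits without a filter, with RLE size factors, edgeR's exactTest, DESeq2 1.42.0, all 12 libraries, a replicate block and without each library in turn were also run.

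The members and gene lists were chosen with earlier results of these data known. Named were all 10 members, Runx1, genes overlapping a member, the 3 most correlated genes of Bcl2, Bcl2l1, Mcl1 and Bid, and, of each list and comparison, at most the 3 called genes of lowest p. Of these, only the genes of marker and immediate early lists that a result turns on are printed. One gene that this rule names is not reported here. Promoter windows and their motifs came from RefSeq (GRCm38.p6). Pmaip1 had no window used here. At 10726098 to 14445026 counts per library, 3 counts equal 0.208 to 0.280 CPM, which covers counting error only.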

Additional observations from a re-analysis of the deposited data

How the results depend on the processing

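Leaving out 1 library in turn kept Bcl2, Bcl2l1 and Bid in P2+ against P2-. Bax was lost in some of these fits, Bbc3 was added without P2+ replicate 2, and Pmaip1, which met the filter only through P2+, without P2- replicate 2. In P2+ against WT, Bcl2 and Bcl2l1 were kept. Both Bax and Bid were lost without WT replicate 1 or 3, and Bbc3 was added without P2+ replicate 2. For P2- against WT, Bcl2 and Bcl2l1 were kept, and Bid was lost except without P2- replicate 2. For KO against WT, Bcl2 and Bcl2l11 were kept. The share of all genes called was not computed with 1 library left out. A 2-fold minimum left 2 members in P2+ against P2-, beside 12.7% of all genes. It left 0 in P2+ against WT (3.84% of all genes), P2- against WT (4.68%) and KO against WT (3.41%). Without the filter on low counts P2- against WT had 5 members, as Mcl1 (0.45, adjusted p = 0.0309) and Bcl2l11 (0.47, adjusted p = 0.0271) were added, and Mcl1 was also added in P2+ against WT (0.44, adjusted p = 0.0374), although with the filter and without P2+ replicate 2 it was 0.05 (adjusted p = 0.693). Without the filter KO against WT had 3 members, with Bak1 added (0.22, adjusted p = 0.0482). DESeq2 added Bcl2l11 in P2- against WT (adjusted p = 0.0273). RLE size factors, exactTest and the fit of all 12 libraries called the same members as the main fit in each comparison. Some log2 changes, mostly near 0 or of genes high in replicate 2, changed sign. In P2+ against P2-, Mcl1 was 0.001 with RLE, 0.0008 with DESeq2 and between -0.38 and 0.36 without each library in turn, Bak1 between -0.029 and 0.026 without each library and 0.031 without replicate 2 of both fractions, and Bbc3 between -1.15 (without P2+ replicate 2, adjusted p = 0.0457) and 0.14 (without P2- replicate 2). Without each library in turn, Bbc3 lay between -0.67 and 0.37 in P2+ against WT and between -0.039 and 0.74 in P2- against WT, Pmaip1 between -1.57 and 0.29 in P2- against WT, and Bad between -0.054 and 0.082 in KO against WT. Causes of these changes were not tested.

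With a replicate block, 7 members were called in P2+ against P2-, beside 50.7% of all genes. Of these, Pmaip1 met the filter on low counts only through P2+. The pairs behind this block were taken from the correlation of these same libraries, and the labels do not state them. In the other comparisons the libraries share only a number. There the replicate block lost Bax in P2+ against WT (adjusted p = 0.0636), with Bbc3 at -0.10. It lost Bid in P2- against WT (adjusted p = 0.0515) and added Bak1 in KO against WT (adjusted p = 0.0493). The share of all genes called with the block was not computed in these comparisons. In KO against WT not every same-numbered pair correlated above 0.1 (0.158, 0.0213 and 0.0700).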
